A study of Mus musculus with 6 samples.

Results

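The SLC25 genes encode the mitochondrial carrier family, and they were followed here in primary mouse embryonic fibroblasts given erastin. Members were the protein-coding genes whose GENCODE M21 symbol begins with Slc25a and a digit. All 47 such genes were in the deposited table of 43346 genes. The rule used the gene name only, and no measured value. SLC25 proteins sit mostly in the inner mitochondrial membrane, which small charged molecules cross only through carriers, and they exchange nucleotides, phosphate, amino acids, carboxylates, cofactors, iron and glutathione between the cytosol and the matrix. In fibroblasts they link oxidative phosphorylation, the tricarboxylic acid cycle and cytosolic biosynthesis. Iron and glutathione are central to ferroptosis, the iron-dependent, lipid-peroxidation-driven cell death that erastin is used to induce by blocking cystine uptake.

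The study measured RNA by sequencing in primary fibroblasts of C57BL/6 mouse embryos, cells with a limited life span in culture. One group of 3 libraries came from cells given the solvent DMSO, and the other group of 3 from cells given 3 µM erastin. The exposure lasted 24 h and the cells were at passage 9. The medium of both groups held 2-mercaptoethanol, and no genetic change was made in either group. The comparison asks which transcripts differ after this exposure. The labels call the experiment a triplicate but do not say whether the libraries came from separate embryos or cultures, so p-values measure only the spread between these samples, which may be technical.

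Total counts ran from 13333911 to 18505571 in DMSO and from 16800789 to 20509970 in erastin libraries. Levels are in CPM, read counts scaled to the depth of the library and its TMM factor, and 3 reads, taken as the detection floor, were worth 0.14 to 0.23 CPM. Replicate libraries differed by more than sampling noise in all pairs and were counted separately. On the second principal component of all genes tested DMSO replicate 3 (-43.9) stood apart from DMSO replicates 1 and 2 (30.6 and 19.7). All 10 fibroblast markers were detected in every library, with a summed level of 35430 to 38500 CPM in DMSO and 25450 to 26900 CPM in erastin. The endothelial list (4 genes, 3 of them detected in all libraries) summed to 2.22 to 4.76 CPM in DMSO and 7.66 to 10.0 CPM in erastin, nearly all of it Kdr, while Pecam1, Cdh5 and Tie1 stayed under 1 CPM. The muscle list (4 genes) summed to 35.5 to 45.4 and 65.0 to 68.5 CPM, nearly all of it Des, while Myod1, Myog and Myh3 stayed under 0.5 CPM. The macrophage list (5 genes) summed to 22.03 to 41.4 and 26.9 to 55.7 CPM. The largest part was Lyz2, at 11.2 to 26.6 CPM in DMSO and 17.6 to 39.2 CPM in erastin. Cd68 was at 1.06 to 2.96 and 2.96 to 4.97 CPM, and Csf1r at 4.13 to 8.98 and 4.98 to 7.82 CPM. Ptprc and Adgre1 reached at most 1.197 and 3.77 CPM. The epithelial list (4 genes) summed to 2.18 to 3.17 and 2.00 to 3.17 CPM. Adipoq, Cidec and Hbb-bs had 0 reads, and the adipocyte and erythroid lists (4 genes each) summed to at most 0.359 and 0.151 CPM. The part of these other markers in the results below was not tested. In bulk RNA, fewer cells of a type and less RNA per cell cannot be told apart.

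Of the 47 members, 39 passed the filter on low counts and were tested. With edgeR's quasi-likelihood test, 17 of the 39 differed between erastin and DMSO at a threshold of 0.05 on the p-value adjusted over all 14000 genes tested, which is 43.6% against 43.1% of all genes tested. In 9 members the erastin libraries were higher (23.1%, against 21.6% of all genes) and in 8 lower (20.5%, against 21.5%). The family was thus called as often as genes in general, and in both directions. The median log2 fold change of the 39 members was -0.012, beside -0.0014 for all genes, and the median absolute value was 0.32, beside 0.41. A log2 fold change of 1 or more in either direction, with a passed test, was reached by 3 members (all genes: 12.2%). The CPM ranges of the groups did not overlap in 17 tested members (43.6%, against 52.5% of all genes). Scaling by total count only gave 9 higher and 5 lower, and an offset for GC content and transcript length gave 7 higher and 11 lower. Leaving out DMSO replicate 2 gave 8 higher and 5 lower. Of all genes tested, 6049, 5857 and 5203 passed in these fits in that order, beside 6028 in the fit first described.

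**Figure D1:**
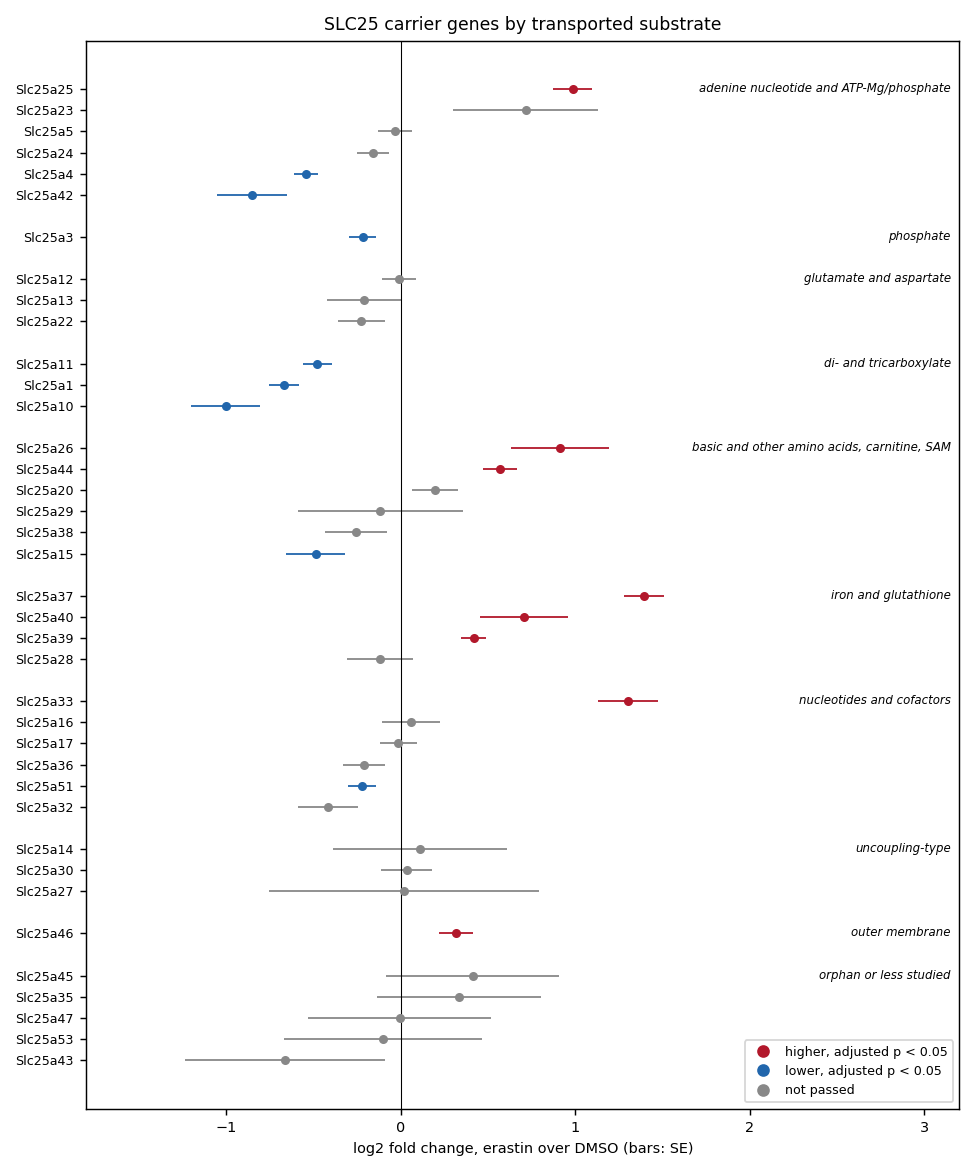
Fitted log2 fold change of 38 tested SLC25 genes (x axis, erastin over DMSO; bars are SE), grouped by transported substrate. Red and blue points passed the edgeR test as higher (8 shown) and lower (8); values run from -1.002 for Slc25a10 to 1.39 for Slc25a37.

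Of the 4 iron and glutathione carriers 3 were higher (all genes: 21.6%) and 0 lower (all genes: 21.5%), and their median log2 fold change was 0.56. Slc25a37 encodes mitoferrin-1, which imports iron into the matrix for heme and iron-sulfur cluster synthesis. Its level was 23.6, 22.01 and 24.4 CPM in DMSO replicates 1 to 3 and 66.3, 64.4 and 52.9 CPM in erastin replicates 1 to 3. The groups lay far apart, with the lowest erastin library above every DMSO library, and the rise was the largest among tested members (log2 fold change 1.39, SE 0.11, edgeR adjusted p = 2.07e-07). Paralog Slc25a28, mitoferrin-2, is the form usually found outside the red cell lineage. It was at 9.75, 10.6 and 11.6 CPM in DMSO and 10.3, 8.80 and 10.3 CPM in erastin. Those ranges overlapped and no difference was called (log2 fold change -0.12, SE 0.19, edgeR adjusted p = 0.653).

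Slc25a39 and Slc25a40 encode the carriers of glutathione into mitochondria. Slc25a39 was at 188, 187 and 171 CPM in DMSO and 246, 248 and 236 CPM in erastin. Every erastin library was above every DMSO library, with a log2 fold change of 0.42 (SE 0.07, edgeR adjusted p = 0.000269). Slc25a40, the scarcer of the pair, was at 8.46, 7.87 and 6.85 CPM in DMSO and 13.0, 7.84 and 16.9 CPM in erastin. Erastin replicate 2 lay within the DMSO range, so the groups overlapped although the gene passed (log2 fold change 0.70, SE 0.25, edgeR adjusted p = 0.0351). With the offset for GC and length the call of Slc25a40 was lost (log2 fold change 0.46, edgeR adjusted p = 0.138) and it was lost too without DMSO replicate 1, 2 or 3 or erastin replicate 1 or 3 (edgeR adjusted p of 0.0563, 0.0759, 0.0811, 0.103 and 0.192; range over its alternatives 0.0036 to 0.192).

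Carriers of nucleotides and cofactors were mixed, with 2 of 7 higher (all genes: 21.6%) and 1 lower (all genes: 21.5%). Slc25a33 encodes a pyrimidine nucleotide carrier that supplies nucleotides for mitochondrial DNA and RNA synthesis. Its level was 11.8, 11.4 and 7.55 CPM in DMSO and 26.1, 26.2 and 23.7 CPM in erastin. The erastin values were close together and all above the DMSO values (log2 fold change 1.30, SE 0.17, edgeR adjusted p = 2.77e-05). Slc25a36, the other pyrimidine nucleotide carrier, was at 38.01, 35.6 and 32.2 CPM in DMSO and 31.5, 26.5 and 33.4 CPM in erastin, overlapping ranges with no call (log2 fold change -0.21, SE 0.12, edgeR adjusted p = 0.183); it was called lower after the GC and length offset (-0.43 on the log2 scale, edgeR adjusted p = 0.00698; alternatives spanned 0.00698 to 0.5).

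The NAD carrier gene Slc25a51 was lower by a small amount, at 80.2, 84.4 and 84.9 CPM in DMSO and 72.3, 70.8 and 70.7 CPM in erastin (log2 fold change -0.22, SE 0.08, edgeR adjusted p = 0.0388). Its ranges did not overlap, but the call was lost in 8 of 15 alternative fits, among them those without DMSO replicate 2 or 3 and without erastin replicate 1, 2 or 3 (edgeR adjusted p of 0.111, 0.0782, 0.0888, 0.0974 and 0.074). Slc25a32, which carries folate or FAD, was at 16.2, 15.9 and 15.6 CPM in DMSO and 14.2, 11.4 and 10.2 CPM in erastin. Its groups did not overlap, yet it missed the threshold (log2 fold change -0.41, SE 0.17, edgeR adjusted p = 0.0662). It was called lower with upper-quartile scaling, after the GC and length offset and without erastin replicate 1 (edgeR adjusted p of 0.0398, 0.00915 and 0.0387; range over its alternatives 0.00902 to 0.199). Slc25a16, linked to coenzyme A supply, and Slc25a17, a carrier of the peroxisomal membrane, lay at 0.06 and -0.012 on the log2 scale and did not pass.

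The adenine nucleotide and ATP-Mg/phosphate carriers also moved both ways, with 1 of 6 tested members higher (all genes: 21.6%) and 2 lower (all genes: 21.5%). Slc25a25 encodes a calcium-regulated carrier that exchanges ATP-Mg for phosphate and so sets the adenine nucleotide content of the matrix. Its level was 21.01, 21.3 and 23.4 CPM in DMSO and 43.5, 45.6 and 40.96 CPM in erastin. Each erastin library was above each DMSO library, by about the same amount (log2 fold change 0.99, SE 0.11, edgeR adjusted p = 5.46e-06). Related Slc25a24 was at 101, 98.4 and 85.5 CPM in DMSO and 87.3, 80.0 and 88.0 CPM in erastin, overlapping and not called (log2 fold change -0.16, SE 0.09, edgeR adjusted p = 0.173); after the GC and length offset it was called lower (-0.29 on the log2 scale, edgeR adjusted p = 0.0098; range over its alternatives 0.0098 to 0.478). The third of these, Slc25a23, varied widely in DMSO, at 4.76, 1.55 and 8.33 CPM, and was at 8.10, 6.35 and 9.18 CPM in erastin. It was not called (log2 fold change 0.72, SE 0.41, edgeR adjusted p = 0.183), but it was called higher without the filter on low counts (edgeR adjusted p = 0.0414) and without DMSO replicate 3, its highest DMSO value (1.36 on the log2 scale, edgeR adjusted p = 0.0116; range over its alternatives 0.0116 to 0.524).

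Slc25a4 encodes ANT1, which exports newly made ATP for cytosolic ADP. It was the most counted member, at 492, 482 and 533 CPM in DMSO and 328, 356 and 351 CPM in erastin. All erastin libraries were lower (log2 fold change -0.54, SE 0.07, edgeR adjusted p = 2.01e-05). Slc25a5, which encodes the ANT2 form common in dividing cells, was at 118, 114 and 93.2 CPM in DMSO and 115, 99.8 and 103 CPM in erastin, with no separation (log2 fold change -0.03, SE 0.10, edgeR adjusted p = 0.827). Retrocopies of such abundant carrier genes can share reads with them, and how these were counted is not given in the sources used here; the 1 named pseudogene in the table, Slc25a5-ps, had at most 2 reads in any library. Slc25a42, which exchanges coenzyme A for adenine nucleotides, was at 10.1, 11.3 and 11.7 CPM in DMSO and 5.91, 6.29 and 6.12 CPM in erastin. Its erastin values were tightly grouped well under the DMSO values (log2 fold change -0.85, SE 0.20, edgeR adjusted p = 0.00337). Slc25a3, the phosphate carrier needed by ATP synthase, was at 233, 229 and 215 CPM in DMSO and 195, 208 and 181 CPM in erastin, lower and without overlap (log2 fold change -0.22, SE 0.08, edgeR adjusted p = 0.0328), but not past the threshold with total-count scaling (edgeR adjusted p = 0.141), without the filter on low counts (0.0771), without DMSO replicate 1 or 2 (0.0954 and 0.104) or without erastin replicate 1 or 3 (0.0953 and 0.119).

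**Figure D2:**
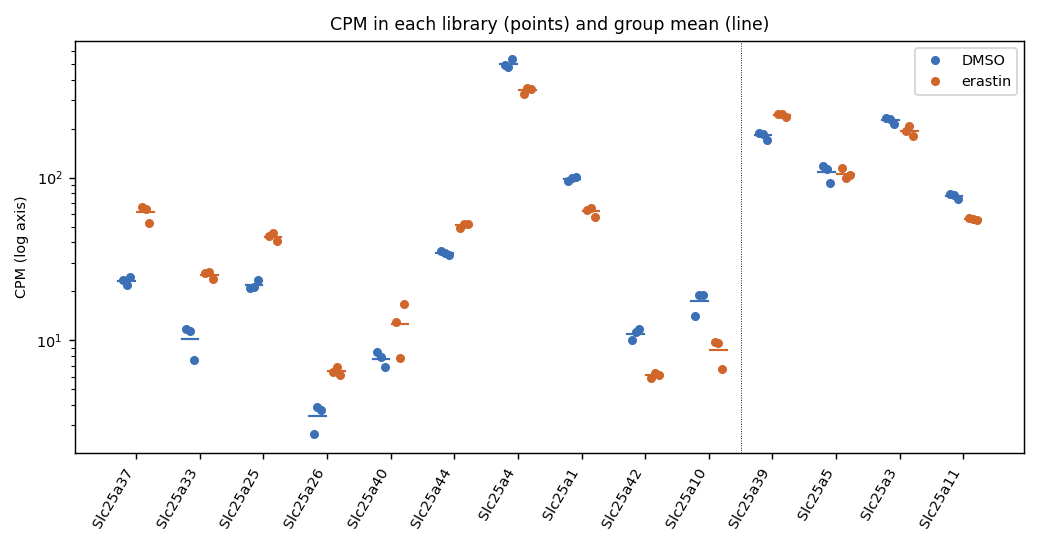
CPM (log axis) of 10 members that passed with a log2 fold change of 0.5 or more in size and a mean count of at least 50, and, right of the dotted line, of 4 abundant members, in the 3 DMSO and 3 erastin libraries (points; lines are group means). The points of Slc25a40 and Slc25a5 overlap between groups, and those of the other 12 do not.

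Every tested carrier of di- and tricarboxylates was lower, 3 of 3 (all genes: 21.5%), with a median log2 fold change of -0.67; the fourth member of the group, Slc25a21, was too scarce to test. Slc25a10 exchanges malate and succinate for phosphate. It was at 14.2, 19.1 and 18.9 CPM in DMSO and 9.78, 9.64 and 6.69 CPM in erastin, the largest fall among tested members (log2 fold change -1.002, SE 0.20, edgeR adjusted p = 0.000881). Slc25a1 exports citrate, the source of cytosolic acetyl-CoA for lipid synthesis. Its level was 94.8, 100.1 and 102 CPM in DMSO and 63.6, 65.4 and 57.4 CPM in erastin (log2 fold change -0.67, SE 0.09, edgeR adjusted p = 1.96e-05). Slc25a11 exchanges oxoglutarate for malate and is part of the malate-aspartate shuttle. It was at 79.4, 78.2 and 74.0 CPM in DMSO and 56.3, 55.6 and 54.6 CPM in erastin (log2 fold change -0.48, SE 0.08, edgeR adjusted p = 0.000334). For none of these 3 genes did the groups overlap, and each passed in all 15 alternative fits.

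The glutamate and aspartate carriers gave no call in 3 tested members, and 2 of these, Slc25a12 and Slc25a13, complete the same shuttle. Slc25a12, the form of excitable tissues, was at 46.2, 42.1 and 41.02 CPM in DMSO and 43.02, 43.5 and 42.1 CPM in erastin (log2 fold change -0.008, SE 0.10, edgeR adjusted p = 0.956). Slc25a13, the form of the liver, was at 11.3, 15.9 and 9.73 CPM in DMSO and 12.5, 10.3 and 9.28 CPM in erastin (log2 fold change -0.21, SE 0.21, edgeR adjusted p = 0.467). Both ranges overlapped. The glutamate carrier Slc25a22 was at 26.4, 24.6 and 24.4 CPM in DMSO and 20.7, 24.7 and 19.2 CPM in erastin, overlapping at erastin replicate 2 (log2 fold change -0.22, SE 0.14, edgeR adjusted p = 0.202).

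Among carriers of other amino acids, carnitine and S-adenosylmethionine, 2 of 6 tested members were higher (all genes: 21.6%) and 1 lower (all genes: 21.5%). Slc25a44 imports branched-chain amino acids. It was at 35.4, 34.3 and 33.5 CPM in DMSO and 49.1, 51.7 and 52.2 CPM in erastin, with clear separation (log2 fold change 0.57, SE 0.10, edgeR adjusted p = 0.000225). Slc25a26 imports S-adenosylmethionine, the methyl donor of mitochondrial RNA and protein methylation. It was at 2.65, 3.88 and 3.74 CPM in DMSO and 6.38, 6.88 and 6.12 CPM in erastin, all erastin libraries being higher (log2 fold change 0.91, SE 0.28, edgeR adjusted p = 0.0165). Slc25a26 had 35 to 137 reads in a library, and the call was lost without DMSO replicate 1 or without erastin replicate 1 or 2 (edgeR adjusted p of 0.0589, 0.0517 and 0.0525; range over its alternatives 0.0104 to 0.0589). Slc25a15, the ornithine carrier of the urea cycle and polyamine supply, was at 18.4, 16.5 and 15.3 CPM in DMSO and 10.9, 11.1 and 13.7 CPM in erastin (log2 fold change -0.48, SE 0.17, edgeR adjusted p = 0.0305). Its groups did not overlap, but it missed the threshold with total-count scaling and without the filter (edgeR adjusted p of 0.0606 and 0.0607) and without DMSO replicate 1 or 2 or erastin replicate 1 or 2 (0.105, 0.0652, 0.115 and 0.0918). The carnitine-acylcarnitine carrier Slc25a20, the glycine carrier Slc25a38 and the basic amino acid carrier Slc25a29 were not called, at 0.20, -0.26 and -0.12 on the log2 scale.

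Slc25a46, an outer membrane protein involved in mitochondrial fission and lipid transfer, was at 49.0, 44.6 and 41.7 CPM in DMSO and 54.1, 57.0 and 57.4 CPM in erastin (log2 fold change 0.32, SE 0.10, edgeR adjusted p = 0.0158). Its ranges did not overlap. The call was lost after the GC and length offset (log2 fold change 0.12, edgeR adjusted p = 0.357) and without DMSO replicate 2 or 3 (edgeR adjusted p = 0.053 and 0.0515; range over its alternatives 0.00671 to 0.397). Of the 3 uncoupling-type members 0 passed. Slc25a30 was at 19.3, 21.95 and 24.99 CPM in DMSO and 20.3, 22.3 and 25.3 CPM in erastin (log2 fold change 0.03, SE 0.14, edgeR adjusted p = 0.873). Slc25a14 was at 5.29, 2.16 and 1.48 CPM in DMSO and 2.33, 5.15 and 2.18 CPM in erastin (log2 fold change 0.11, SE 0.50, edgeR adjusted p = 0.881). Both genes varied more among replicates than between groups. Slc25a27, at a mean of 0.788 CPM in DMSO, was close to the floor. The 5 tested orphan or less studied members, Slc25a35, Slc25a43, Slc25a45, Slc25a47 and Slc25a53, had DMSO means of 1.29 to 2.47 CPM and log2 fold changes of -0.66 to 0.41, and 0 of them passed. Among all 39 tested members, 18 had an unadjusted p-value under 0.05, as had 50.1% of all genes.

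The 8 members left out by the filter were Slc25a2, Slc25a18, Slc25a21, Slc25a31, Slc25a34, Slc25a41, Slc25a48 and Slc25a54. Slc25a18 and Slc25a54 had 0 reads in every library, which allows at most 0.14 to 0.23 CPM, depending on the library, for counting error alone. Slc25a31, the adenine nucleotide carrier of germ cells, and Slc25a41 had 1 read each over the 6 libraries. Slc25a2, an ornithine carrier, had 0, 6 and 0 reads in DMSO and 2, 23 and 15 in erastin. The remaining 3 had 15 reads or fewer in any library, so a difference was not detectable at this depth.

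Levels can be compared between genes only per transcript length, and in CPM per kilobase of the longest annotated transcript Slc25a4 led in DMSO at 261 ± 14.0 (SD, n = 3). It was followed by Slc25a39 at 108 ± 5.55 and Slc25a5 at 87.3 ± 10.7. Each of these was separate from the next in all DMSO libraries. Slc25a1 (59.3 ± 2.13) and Slc25a3 (55.9 ± 2.37) came next and overlapped with each other, and Slc25a11 (45.1 ± 1.65) followed. In erastin the first 3 places were unchanged, at 179 ± 7.78, 144 ± 3.65 and 85.5 ± 6.26 CPM per kilobase, and Slc25a3 (48.1 ± 3.34) stood above Slc25a1 (37.3 ± 2.53). Slc25a37 stood at place 23 in DMSO (3.93 ± 0.202) and at place 14 in erastin (10.3 ± 1.22), and Slc25a33 at places 19 and 11. From place 10 to place 27 in DMSO no member was separate from its next neighbour. These places, and the length-scaled shares given next, rest on the longest transcripts, of 1685 bases for Slc25a39 and 4039 for Slc25a3. In CPM not scaled by length Slc25a3 (mean 226 in DMSO) was above Slc25a39 (182). The transcript forms in use were not tested.

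The make-up of the family's summed level differed between groups at its top. Slc25a4 held 30.6%, 30.6% and 34.6% of the summed length-scaled level of all members in DMSO replicates 1 to 3 and 22.8%, 24.6% and 24.9% in erastin. Slc25a39 held 13.3%, 13.6% and 12.7% in DMSO and 19.5%, 19.5% and 19.1% in erastin. The groups did not overlap for either gene. Summed over all 47 members, the family stood at 1909, 1865 and 1831 CPM in DMSO and 1749, 1767 and 1716 CPM in erastin (exact two-sided permutation test, p = 0.1, the smallest that 3 against 3 libraries allow). Without Slc25a4 the sums were 1366 ± 61.3 CPM in DMSO and 1399 ± 29.8 CPM in erastin (SD, n = 3; exact permutation p = 0.6).

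**Figure D3:**
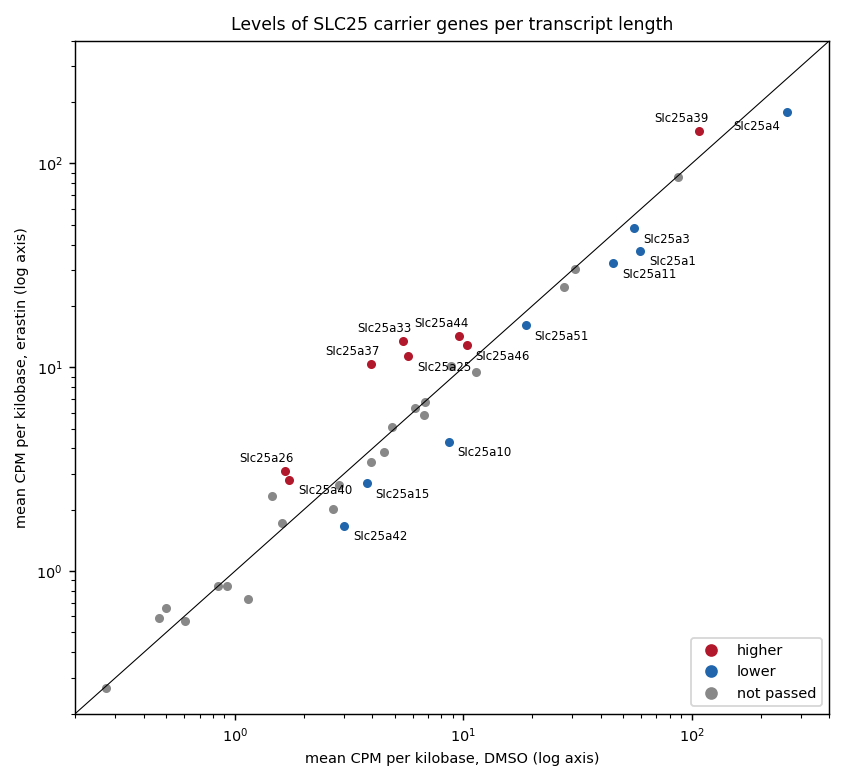
Mean CPM per kilobase of longest transcript in DMSO (x) and erastin (y) libraries, log axes, for members above 0.2 in both groups; the line marks equal levels. Slc25a4 is highest in both groups and lies under the line, and Slc25a39 is next and lies above it.

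The ratio of paralogs within a library does not depend on how libraries are scaled. Of 10 pairs chosen by shared substrate or sequence, 8 had reads for both genes in every library. In 4 of the 8 the ratio of reads per kilobase did not overlap between groups. For comparison, CPM did not overlap in 52.5% of all single genes tested. The pairs without overlap each joined a called member with a member that was not called. Each of these 4 reached an exact two-sided permutation p of 0.1, the smallest this design allows, or 0.2 after adjustment over the 8 pairs, so none passes a threshold of 0.05. The log2 ratio of Slc25a28 to Slc25a37 was -0.60, -0.39 and -0.40 in DMSO and -2.02, -2.20 and -1.69 in erastin. Per kilobase, mitoferrin-2 transcripts were thus at 0.725 of the mitoferrin-1 level in DMSO and at 0.255 in erastin. These values rest on the longest transcripts, of 3724 bases for Slc25a28 and 5927 for Slc25a37. In reads not scaled by length Slc25a28 was also the lower in every library. The log2 ratio of Slc25a33 to Slc25a36 was -0.22, -0.18 and -0.62 in DMSO and 1.201, 1.45 and 0.98 in erastin. Per kilobase, Slc25a36 was thus ahead in every DMSO library and Slc25a33 in every erastin library. That order rests on the longest transcripts, of 5227 bases for Slc25a36 and 1887 for Slc25a33. In reads not scaled by length Slc25a36 was ahead in every library, by 443 to 437 in erastin replicate 2. The transcript forms in use were not tested, so which gene is ahead cannot be told. The ratio did not overlap between groups, but as stated above its permutation test did not pass.

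The log2 ratio of Slc25a24 to Slc25a25 was 2.42, 2.36 and 2.03 in DMSO and 1.16, 0.97 and 1.26 in erastin, a drop from 4.82 to 2.19 times. That of Slc25a4 to Slc25a5 was 1.43, 1.45 and 1.88 in DMSO and 0.88, 1.202 and 1.13 in erastin, from 3.00 to 2.10 times. In both pairs the first gene stayed the more abundant, per kilobase of the longest transcript and in reads not scaled by length. The glutathione carriers Slc25a39 and Slc25a40 kept overlapping log2 ratios, 5.97 ± 0.085 in DMSO and 5.75 ± 0.593 in erastin (SD, n = 3; exact permutation p = 0.7). The ratios of Slc25a12 to Slc25a13, Slc25a23 to Slc25a24 and Slc25a14 to Slc25a30 also overlapped (exact permutation p of 0.5, 0.3 and 0.9).

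**Figure D4:**
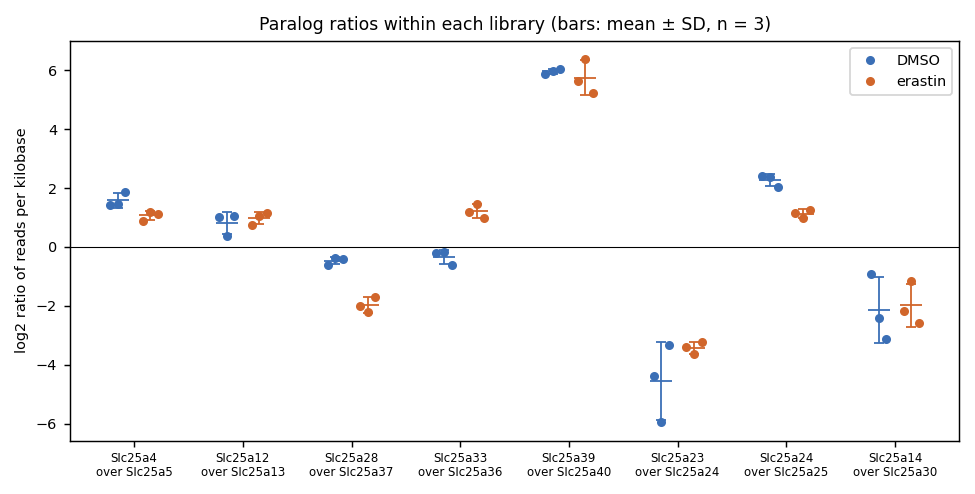
log2 ratio of reads per kilobase for 8 pairs of related carriers in each library (points), with mean ± SD (n = 3). In the pairs Slc25a4 over Slc25a5, Slc25a28 over Slc25a37, Slc25a33 over Slc25a36 and Slc25a24 over Slc25a25 the DMSO and erastin libraries do not overlap.

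Promoter sequence was examined for every member with an annotated promoter window, called or not. Slc25a37, the member with the largest rise, had no window. In RefSeq's table for GRCm38.p6, 36 of the 47 members had 46 promoter windows, each from 250 bases before to 50 after a transcription start. Both strands were searched for TGACNNNGC, the core of the antioxidant response element, and TGATGNAA, a core of the C/EBP-ATF response element. The first was found in 12 of 46 member windows (26.1%), against 12.4% of all 32851 windows, and by gene in 9 of 36 members against 14.0% of all genes. The windows of 1 gene can overlap and share a match. By call, it was in 3 of 4 members that were higher and had a window, 1 of 7 that were lower and 5 of 19 that did not pass. The second was in 0 of 46 member windows, against 3.97% of all windows, so no matches of the 2 motifs overlapped. A match describes these letters only. The 250 bases before 1 annotated start are shown for each of Slc25a25 and Slc25a33, which rose, and Slc25a3, which was lower and holds a match too. Capitals mark matches to TGACNNNGC on either strand, and all 3 windows are on the minus strand, at chr2:32451471-32451720, chr4:149774268-149774517 and chr10:91123968-91124217 in that order.
Slc25a25: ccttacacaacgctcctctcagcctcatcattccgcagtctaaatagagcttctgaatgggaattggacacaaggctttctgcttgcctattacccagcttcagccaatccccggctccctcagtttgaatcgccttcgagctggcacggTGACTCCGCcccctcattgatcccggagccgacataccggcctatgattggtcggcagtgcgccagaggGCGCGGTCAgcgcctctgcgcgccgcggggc
Slc25a33: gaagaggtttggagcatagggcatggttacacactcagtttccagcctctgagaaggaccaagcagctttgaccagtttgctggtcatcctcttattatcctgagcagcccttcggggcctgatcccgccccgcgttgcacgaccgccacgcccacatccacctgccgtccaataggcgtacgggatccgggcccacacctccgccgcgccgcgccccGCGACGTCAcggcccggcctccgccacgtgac
Slc25a3: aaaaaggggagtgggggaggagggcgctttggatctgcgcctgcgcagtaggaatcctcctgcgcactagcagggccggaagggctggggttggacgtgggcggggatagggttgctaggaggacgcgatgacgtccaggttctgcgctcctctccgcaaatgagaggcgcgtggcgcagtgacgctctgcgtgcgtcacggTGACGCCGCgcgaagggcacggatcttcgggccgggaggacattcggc
The window shown for Slc25a25 holds matches at positions -100 and -31 from its start, that of Slc25a33 at -32 and that of Slc25a3 at -48. Slc25a25 has further windows before other starts, at chr2:32431152-32431401 and chr2:32424067-32424316, and these hold no match. Which start was in use in these cells was not tested.

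In the genome the members lie on 19 chromosomes. Genes described above as passing with a log2 fold change of 0.5 or more in size include Slc25a37 on mm10 chromosome 14 (69241848 to 69285112, minus strand), Slc25a33 on chromosome 4 (149744036 to 149774277, minus), Slc25a25 on chromosome 2 (32414487 to 32451445, minus), Slc25a4 on chromosome 8 (46206797 to 46211284, minus), Slc25a1 on chromosome 16 (17925223 to 17928219, minus) and Slc25a10 on chromosome 11 (120491840 to 120499187, plus). The closest neighbours, 162 to 18448 bases apart, are Slc25a29 with Slc25a47, Slc25a41 with Slc25a23, Slc25a54 with Slc25a24 and Slc25a43 with Slc25a5, and no gene of these pairs passed the test. Exons of 12 members overlap exons of a gene on the opposite strand, and whether the counting used the strand is not given in the sources used here. Of these 12, 8 were called, beside 43.6% of the tested members and 43.1% of all genes tested. Slc25a18 and Slc25a21 are among the 12 and were not tested. The overlap covered 14.9% of the exon bases of Slc25a33 (with Gm13068, which had at most 1 read in a library) and 4.82% of those of Slc25a25 (with Naif1, at 99 to 213 reads). For Slc25a37 both overlapping genes had 0 reads. Exons of Slc25a26 overlapped by 3.00% with Lrig1, which had 659 to 1426 reads, more than Slc25a26 itself, and those of Slc25a11 by 8.92% with Rnf167, at 177 to 364 reads. The overlaps of Slc25a10 (6.60%, Gm11788) and Slc25a46 (7.06%, B930094E09Rik) were with genes of at most 1 and 12 reads. The part of these overlaps in the results was not tested. GC content was 39.4% to 59.7% in the 9 members that were higher and 43.6% to 60.6% in the 8 that were lower. Across the 39 tested members, which share the same 6 libraries, Spearman's rho of log2 fold change with GC content was -0.11. Over 13937 tested genes it was -0.18.

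The carriers work beside other mitochondrial genes, and 5 lists of these were examined. Of the relatives named outside the Slc25a series, 0 of 3 tested were higher (all genes: 21.6%) and 2 lower (all genes: 21.5%). Mtch1, an outer membrane member of the family, stood at 259 ± 18.5 CPM in DMSO and was lower in erastin, at 121 ± 4.53 CPM (SD, n = 3; -1.10 on the log2 scale, edgeR adjusted p = 5.24e-08), while its paralog Mtch2 stood at 83.6 ± 13.8 and 89.8 ± 1.66 CPM without a call (edgeR adjusted p = 0.484). Ucp2, an uncoupling protein, was lower, at 4.99 ± 0.738 and 2.68 ± 0.904 CPM (edgeR adjusted p = 0.0498). Ucp1 and Ucp3 were too scarce to test.

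Of 13 genes of the machinery that imports carriers into the inner membrane, 5 were higher (all genes: 21.6%) and 0 lower (all genes: 21.5%), with a median log2 fold change of 0.22. The list holds 6 small chaperones of the intermembrane space, which escort carriers, and 3 of them were higher. Timm9 rose from 6.55 ± 1.53 CPM in DMSO to 18.97 ± 1.78 CPM in erastin (SD, n = 3; 1.52 on the log2 scale, edgeR adjusted p = 1.95e-05), Timm10 from 9.84 ± 0.986 to 22.4 ± 2.35 CPM (1.19, edgeR adjusted p = 3.06e-05) and Timm8a1 from 0.95 ± 0.403 to 4.46 ± 1.27 CPM (2.25, edgeR adjusted p = 0.000958). The other 3, Timm10b, Timm13 and Timm8b, were not called, with log2 differences of 0.11, 0.08 and -0.10 (edgeR adjusted p of 0.739, 0.556 and 0.556). The carrier translocase channel Timm22 was at 36.4 ± 4.51 and 36.2 ± 0.958 CPM (edgeR adjusted p = 0.979). The carrier receptor Tomm70a and the receptor Tomm20 were among the 5 that were higher; these 2, Timm22 and the 3 chaperones without a call were named after their values were seen.

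Among 18 other mitochondrial transporters and channels, 2 were higher (all genes: 21.6%) and 3 lower (all genes: 21.5%), and the median log2 fold change was -0.023. Vdac3, a pore of the outer membrane, rose from 35.95 ± 0.93 CPM in DMSO to 58.2 ± 5.97 CPM in erastin (SD, n = 3; 0.70 on the log2 scale, edgeR adjusted p = 7.12e-05). The sideroflexins Sfxn3 and Sfxn5, transporters of the inner membrane, fell from 145 ± 10.8 to 105 ± 8.26 CPM and from 10.5 ± 2.18 to 5.06 ± 0.32 CPM (edgeR adjusted p = 0.000602 and 0.00185). Of 11 tested enzymes of the malate-aspartate shuttle and the carnitine and citrate systems, 1 was higher (all genes: 21.6%) and 6 lower (all genes: 21.5%), with a median of -0.33. Got1, the cytosolic transaminase of the malate-aspartate shuttle, rose from 66.2 ± 2.75 CPM in DMSO to 137 ± 16.95 CPM in erastin (1.05 on the log2 scale, edgeR adjusted p = 6.86e-07). Cpt1a, which makes the acylcarnitines that Slc25a20 carries, fell from 67.6 ± 4.59 to 34.5 ± 3.52 CPM (edgeR adjusted p = 2.99e-06), and Acly, which splits the citrate that Slc25a1 exports, from 357 ± 14.6 to 227 ± 10.0 CPM (edgeR adjusted p = 3.4e-06). Of 8 genes chosen to stand for the amount of inner membrane and matrix, 3 were higher (all genes: 21.6%) and 2 lower (all genes: 21.5%). Hspd1, Phb and Uqcrc2 were higher, with log2 fold changes of 0.54, 0.49 and 0.41. Atp5a1 and Cox4i1 were lower, at -0.29 and -0.24, and these 2 were named after their values were seen. The median of the 8 was -0.12. For comparison, the median of all genes was -0.0014. Over the 5 lists together 11 genes were higher and 13 lower, against 11 and 17 with upper-quartile factors and 12 and 9 with total-count scaling.

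**Figure D5:**
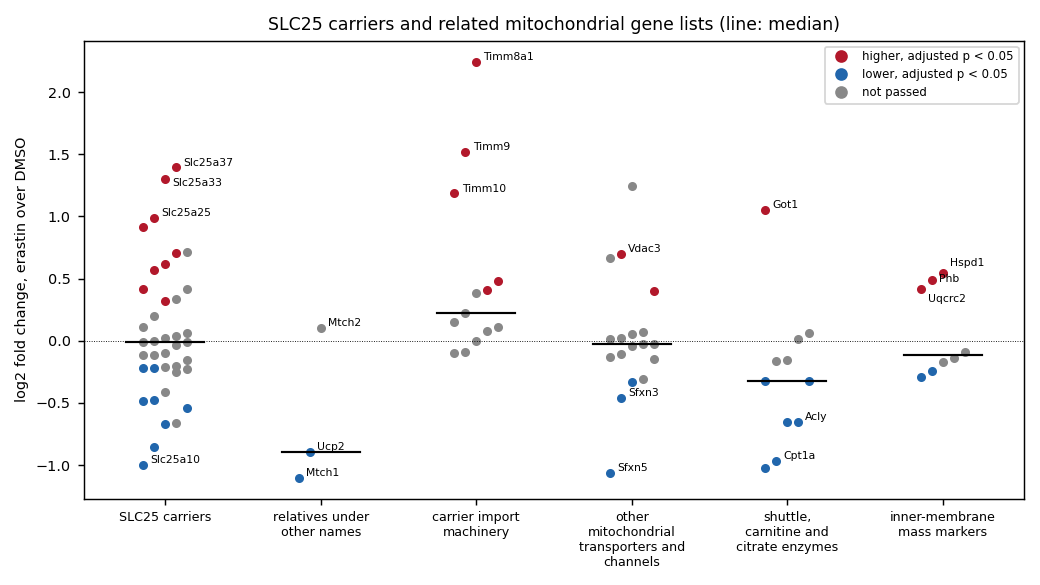
Fitted log2 fold change (y axis, erastin over DMSO) of the tested SLC25 carriers and of 5 lists of related mitochondrial genes; points are genes, coloured by the edgeR call, and black lines are medians. The carriers spread on both sides of 0 (9 higher, 8 lower), the import machinery has 5 higher and 0 lower, and the shuttle, carnitine and citrate enzymes have 1 higher and 6 lower.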

How the data were processed

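RNA was depleted of ribosomal RNA, heat-fragmented, amplified by PCR and sequenced on an Ion Proton instrument, per the labels' protocols. The deposited table holds whole-number read counts per gene, in 1 column for each library, not normalized by the authors; HTSeq 0.9.1, SAMtools and build mm10 are named in the submitters' processing notes. Aligner, annotation, strand setting and treatment of multiply matching reads are not given in the sources used here. Versioned Ensembl IDs were matched without version to GENCODE M21 (mm10), and 42462 of 43346 (98.0%) had a symbol; 0 columns were left unused.

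Counts were analysed with edgeR 4.0.16 in R 4.3.3: filterByExpr (minimum count 10, total 15), TMM factors and the quasi-likelihood test over all 6 libraries, treatment the only term, with Benjamini-Hochberg adjustment over 14000 genes. SEs come from the fitted weights and quasi-dispersion. The script was tested on simulated data. The labels do not say whether equally numbered libraries were handled together. Deviations from the group means correlated at 0.013 on average, and 0.04 at most, between equally numbered libraries. So few libraries cannot decide whether the numbers pair them.

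Members described library by library passed with a log2 fold change of 0.5 or more in size and a mean count of at least 50, or belong to a paralog pair; Slc25a3, Slc25a11, Slc25a15, Slc25a32 and Slc25a46, outside that rule, were described so after their values were seen; the 3 genes of smallest p were named per list; others named were chosen after their values were seen. Members and lists were chosen with earlier results of these data known. Alternatives were RLE, upper-quartile and total-count scaling, no filter or 1 CPM in 3 libraries, a replicate block, a GC and length offset (mgcv 1.9.3), DESeq2 1.42.0, an adjusted p-value under 0.01 and leaving out each library. Counting error sets the floor of 3 reads, and PCR reads without molecular identifiers are not independent molecules. Protein sequences were not analysed here. One member counted in the totals is not reported here by name or value.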

Additional observations from a re-analysis of the deposited data

How the results depend on the processing

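In 10 members (Slc25a37, Slc25a33, Slc25a25, Slc25a44, Slc25a39, Slc25a4, Slc25a1, Slc25a11, Slc25a42 and Slc25a10) the call and direction held in all 15 alternative fits; the other 7 called members lost their call in at least 1, with no change of direction. An adjusted p-value under 0.01 left 10 of the 17 called members, 5 higher and 5 lower, and 4305 of the 6028 called among all genes. Members lower numbered 5 with total-count scaling and 5 without the filter on low counts. When single libraries were left out, 12 to 14 members passed, 6 to 8 higher and 5 to 7 lower (5 without DMSO replicate 2), and 4 to 5 paralog pairs did not overlap. Of all genes tested, 4802 to 5809 passed in the fits with 1 library left out. The median log2 fold change of the members, -0.012 as reported, was -0.067 with upper-quartile factors, 0.051 with total-count scaling, -0.045 after the GC and length offset, -0.046 after the offset with the replicate block, and -0.13 to 0.0011 when 1 library was left out (-0.13 without DMSO replicate 3). The scalings moved the median of all genes to -0.055 (upper-quartile) and 0.065 (total count). With the replicate block 5882 of all genes and 17 members passed, 10 higher and 7 lower, including 16 of the 17 called without the block; Slc25a23 passed (edgeR adjusted p = 0.0396) and Slc25a51 did not (0.0644). Equally numbered libraries had a mean correlation of deviations of 0.013, beside -0.0063 for other numbers. With so few libraries this cannot decide whether equally numbered ones were handled together.

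Signs changed in 11 members, none of them called. With upper-quartile factors Slc25a30 was -0.019 and Slc25a27 -0.031. With total-count scaling Slc25a5 was 0.034, Slc25a17 0.051, Slc25a12 0.056 and Slc25a47 0.056. Without the filter Slc25a17 was 0.00704, Slc25a12 0.011 and Slc25a47 0.017. With the replicate block Slc25a47 was 0.0077, and with DESeq2 it was 0.00105 and Slc25a27 -0.0054. With the GC and length offset, first alone and then with the block, Slc25a29 was 0.11 and 0.085, Slc25a30 -0.0497 and -0.046, Slc25a47 0.14 and 0.14, and Slc25a16 -0.036 and -0.048. Leaving out 1 library moved Slc25a13 between -0.35 and 0.025, Slc25a5 between -0.13 and 0.032, Slc25a29 between -0.29 and 0.083, Slc25a30 between -0.052 and 0.13, Slc25a17 between -0.11 and 0.098, Slc25a27 between -0.67 and 0.97, Slc25a12 between -0.043 and 0.044, Slc25a14 between -0.39 and 0.80, Slc25a53 between -0.81 and 0.38, Slc25a47 between -0.31 and 0.23 and Slc25a16 between -0.028 and 0.20. The cause was not tested.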
